A study of Mus musculus with 2 samples.

Results

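The 10 RGS genes Rgs2, Rgs4, Rgs7, Rgs8, Rgs9, Rgs10, Rgs12, Rgs14, Rgs17 and Rgs20 were taken by symbol from the read counts of dorsal striatum RNA. All 10 were among the 32531 gene symbols listed, and all 10 passed the minimum of 50 counts summed over the libraries, as did 12213 genes in all, which are called measured genes here. The mice had taken cocaine by intravenous self-administration with long access, and 1 library came from the group labelled escalating and 1 from the group labelled nonescalating. Every animal was of the Drd1-TRAP line CP73, a bacterial artificial chromosome transgenic in which Drd1-expressing cells carry EGFP-tagged ribosomal protein Rpl10a. The strain was FVB/N-Swiss Webster, crossed to C57BL/6 for a minimum of 9 generations. Both libraries are input, so they hold total RNA of all cells in the dissected tissue rather than RNA of the tagged ribosomes. No drug-naive group was analysed here, and the sources used here do not state the age, sex or number of mice behind each library.

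RGS proteins shorten signalling by receptors that act through G proteins. Their shared domain speeds the hydrolysis of GTP by the G alpha subunit, which returns the subunit to its resting state. In striatum they act downstream of dopamine, opioid, muscarinic, cannabinoid and glutamate receptors. The family is divided into classes. The small R4 proteins, here Rgs2, Rgs4 and Rgs8, consist of little more than the domain. The R7 proteins, here Rgs7 and Rgs9, are stable only when bound to the G beta subunit Gnb5 and are held at membranes by Rgs7bp. The RZ proteins, here Rgs17 and Rgs20, act on Gz and other Gi-class subunits. The R12 class holds the short Rgs10 and the large scaffold proteins Rgs12 and Rgs14.

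Between these libraries most of the family was not called by the rule given below, as was true of most measured genes (8985 of 12213). Of the 10 genes, 8 differed by less than 1.5-fold, Rgs14 was 1.58-fold higher in the escalating library and Rgs10 was 1.78-fold lower there. Rgs9 and Rgs4, the most abundant members, had ratios of escalating over nonescalating of 1.27 and 0.984. With 1 library per group, no difference here has a replicate check and none was tested, so the values describe the libraries, and the groups of mice cannot be told apart from the preparation of each library. Wherever 2 values stand side by side, the escalating library comes first. Levels are in CPM, counts divided by the TMM-scaled library size in units of 1000000. A gene was called when it differed by 1.5-fold or more and the exact 95% interval of its ratio left out 1. These intervals cover counting error only, and reads are not independent molecules.

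The libraries held 9548358 (escalating) and 9376097 (nonescalating) reads assigned to genes. The symbol AK140265 alone took 9.66% and 24.1% of them, and ratios depended on how the libraries were scaled. Across all measured genes 9.36% were called higher and 17.1% lower in the escalating library, so calls in either direction came to 26.4%. Higher calls were 35.4% of all calls with TMM, 77.0% when scaled to total assigned reads and 8.79% when scaled to the median of 15 pan-neuronal genes. The median log2 ratio of all measured genes was 0.02, 0.38 and -0.27 under these scalings, and ratios are best read against that centre. Markers of several glial types stood far apart: all 18 microglia markers were called lower, with summed levels of 41.4 and 1915 CPM, and 2 of them, Gpr34 and Trem2, were without a count in the escalating library. All 13 astrocyte markers were also called lower, summing to 1944 and 14875 CPM. Of 7 oligodendrocyte precursor markers, by contrast, 1 was called higher (Neu4) and 2 lower, with a median log2 ratio of -0.18 (0.18 with total reads). Drd1, the receptor gene that drives the transgene, had 3010 and 2959 counts, and the projection neuron gene Ppp1r1b had 18584 and 7710, so these striatal markers were present in both libraries; Ppp1r1b was called higher at 1.84-fold (1.79 to 1.89) and Drd1 had a ratio of 0.778. In tissue RNA, fewer cells of a type and less RNA per cell cannot be told apart.

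Of the 10 members 1, Rgs14, was called higher and 1, Rgs10, was called lower, a share near that of all measured genes (9.36% and 17.1%). With total reads 4 members were called higher, namely Rgs8, Rgs9, Rgs14 and Rgs17, and 0 lower, beside 31.5% and 9.4% of all measured genes (40.9% in either direction). With pan-neuronal scaling 0 were called higher and 2 lower, namely Rgs10 and Rgs20, beside 2.78% and 28.9% (31.7% in either direction). With TMM and a threshold of 2-fold no member was called, beside 2.04% higher and 8.88% lower. When a difference of 25% was enough, Rgs9 and Rgs14 were called higher and Rgs10 and Rgs20 lower, beside 20.2% and 25.0%. The members' median log2 ratio was 0.14, beside 0.02 for all measured genes. The members' median lay 0.12 above the median of all measured genes with TMM, with total reads and with pan-neuronal scaling alike, although the value itself went from 0.50 with total reads to -0.15 with pan-neuronal scaling. The range of the members, from -0.83 to 0.66, compares with a full range of all measured genes from -8.75 to 3.78 and with quartiles of -0.40 and 0.32.

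**Figure D1:**
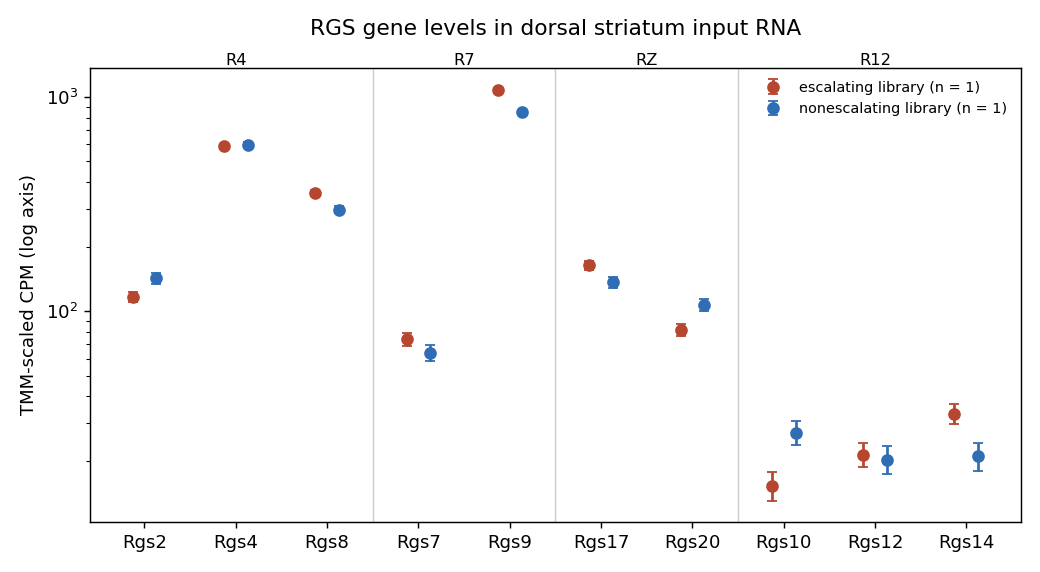
TMM-scaled CPM (log axis) of the 10 RGS genes, grouped by class, in the escalating and the nonescalating library; points are single libraries and bars are exact 95% Poisson intervals, which cover counting error only. Rgs9 and Rgs4 lie highest in both libraries. The intervals of the libraries overlap for Rgs4, Rgs7 and Rgs12 and are apart for every other member, called or not.

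With TMM, the R4 members each differed by less than 1.5-fold. Rgs2 (chromosome 1, 143999338 to 144004161, minus strand, mm10) encodes a small regulator that favours Gq and whose gene is known to respond to cAMP. It had 1264 and 1176 counts. These are levels of 117 CPM (95% Poisson interval 110.5 to 123) and 142 CPM (134 to 150.5), and the ratio was 0.822 (0.758 to 0.891). The intervals of the levels do not overlap, but the ratio is under the 1.5-fold threshold, and with total-read scaling it became 1.06 (0.974 to 1.14). With pan-neuronal scaling the ratio was 0.673 (0.621 to 0.729), which was not called.

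Rgs4 (chromosome 1, 169741477 to 169747642, minus strand) encodes a regulator of Gi and Gq signals that is abundant in cortex and striatum. It had 6376 and 4953 counts, or 589 CPM (575 to 604) and 599 CPM (582 to 616). The ratio of 0.984 (0.948 to 1.02) was the closest to 1 in the family with TMM. In CPM, which is not scaled to gene length, 98.9% and 98.7% of measured genes had a lower level. Its sign depends on the scaling: the ratio was 1.26 with total reads and 0.805 with pan-neuronal scaling.

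Rgs8 (chromosome 1, 153653025 to 153700323, plus strand) encodes an R4 regulator of Gi and Go found in several groups of inhibitory neurons. With 3854 and 2464 counts, it reached 356 CPM (345 to 368) and 298 CPM (286 to 310). The ratio was 1.20 (1.14 to 1.26) with TMM, 1.54 with total reads, where the gene was called higher, and 0.979 with pan-neuronal scaling. Summed, these 3 R4 members had a ratio of 1.02 (0.994 to 1.05) with TMM and 1.31 (1.28 to 1.35) with total reads.

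Promoter sequence is shown for the members that carry the core of the cAMP response element, since Rgs2 is known as a cAMP-responsive gene and the response element is a short motif that a reader can find in the letters. RefSeq promoters (GRCm38.p6, the assembly of mm10) matched 8 of the 10 genes in 11 windows; Rgs14 and Rgs20 had no entry. In the 250 bases before each annotated start, the core TGACG was searched on both strands, so that it can also read CGTCA. It occurred in 17.8% of all 32851 promoter windows and in 4 of the 11 windows of these genes, which belong to Rgs2, Rgs4, Rgs8 and Rgs12. The Rgs12 stretch lies inside the span of its gene (34949445 to 35039644, plus strand) and not before it. The full palindrome TGACGTCA, which contains the core on each strand, occurred in 1.55% of all windows and in 0 of the 11. Each line runs 5′ to 3′ on the gene's strand, with the core in capitals and its first base 185 and 67 bases before the start for Rgs2, 236 and 141 for Rgs4, 46 for Rgs8 and 82 for Rgs12.
Rgs2, chr1:144004306-144004358, minus strand: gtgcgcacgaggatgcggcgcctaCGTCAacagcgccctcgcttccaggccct
Rgs2, chr1:144004188-144004240, minus strand: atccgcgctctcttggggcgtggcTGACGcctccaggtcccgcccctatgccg
Rgs4, chr1:169747850-169747892, minus strand: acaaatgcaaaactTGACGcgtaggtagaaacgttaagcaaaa
Rgs4, chr1:169747755-169747807, minus strand: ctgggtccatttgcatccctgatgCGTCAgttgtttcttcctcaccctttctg
Rgs8, chr1:153652967-153653019, plus strand: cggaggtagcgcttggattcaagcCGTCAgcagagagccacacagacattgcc
Rgs12, chr5:34998972-34999024, plus strand: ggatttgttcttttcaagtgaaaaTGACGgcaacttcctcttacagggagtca
The genes of these 4 promoters had ratios of 0.822, 0.984, 1.20 and 1.05, and the matched genes without the letters, Rgs7, Rgs9, Rgs10 and Rgs17, had 1.16, 1.27, 0.563 and 1.20. A match is a description of the letters and not evidence of binding.

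Since Rgs2 can be induced with activity, the activity-induced genes are given beside it. Of 16 measured genes on that list, 3 were called higher and 6 lower, beside 9.36% and 17.1% of all measured genes. Their median log2 ratio was -0.33 (0.03 with total reads). Arc, a synaptic effector, was 3.72-fold lower (3.19 to 4.35), Nptx2, a secreted synaptic pentraxin, 3.41-fold lower (2.38 to 4.96) and the transcription factor gene Egr2 had a ratio of 0.334 (0.225 to 0.486). The activity-induced transcription factor gene Npas4 was 2.85-fold higher (2.14 to 3.84), and Junb and Nr4a2 were the other 2 called higher. Of all measured genes, 30.3% had a lower ratio than Rgs2.

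The R7 members Rgs9 and Rgs7 had ratios above 1 with TMM. Rgs9 (chromosome 11, 109225355 to 109298129, minus strand) encodes the regulator best known from striatum, where its long splice form is enriched in projection neurons and acts on dopamine and opioid receptor signals. It had 11664 and 7036 counts, the most of the 10 genes. The levels were 1078 CPM (1058 to 1098) and 850 CPM (831 to 871), with intervals that do not overlap. The ratio was 1.27 (1.23 to 1.31), under the threshold, and 76.7% of measured genes had a lower one. With total reads it was called higher at 1.63 (1.58 to 1.68), and with pan-neuronal scaling it was 1.04 (1.01 to 1.07). The counts do not separate the retinal and the striatal splice forms.

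Rgs7 (chromosome 1, 175059087 to 175492500, minus strand), a broadly neuronal R7 regulator of Go, had 802 and 530 counts. Its levels were 74.1 CPM (69.1 to 79.4) and 64.1 CPM (58.7 to 69.8), whose intervals overlap, with a ratio of 1.16 (1.04 to 1.29). With total reads the ratio was 1.49 (1.33 to 1.66), which was not called, and with pan-neuronal scaling it was 0.947. Rgs7 and Rgs9 summed had a ratio of 1.26 (1.22 to 1.30) with TMM, which is almost entirely that of Rgs9. With total reads the ratio of this sum was 1.62 (1.57 to 1.67), past the 1.5-fold threshold. The R7 genes Rgs6 and Rgs11 are not in this sum and are given below.

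Of the partners on which R7 proteins depend, 3 of 5 were measured and 0 were called in either direction, with a median log2 ratio of -0.03. Gnb5, the obligate G beta partner, had 1817 and 992 counts and a ratio of 1.40 (1.30 to 1.51). Rgs7bp, the membrane anchor, had 5726 and 4465 counts and a ratio of 0.981 (0.943 to 1.02). Gpr158, an orphan receptor that binds Rgs7, had 4278 and 4008 counts and a ratio of 0.816 (0.782 to 0.852). Gnb5 thus lay above Rgs9 in ratio and the anchors below it. With total reads 1 of these partners was called higher. Rgs9bp, the anchor of photoreceptors, had 1 and 0 counts, and Gpr179, its retinal counterpart among receptors, had 0 and 9; both are under the count minimum.

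The RZ genes pointed in different directions with TMM. Rgs17 (chromosome 10, 5825663 to 5922400, minus strand), which acts on Gz, Gi and Go and is known to limit opioid receptor signals, had 1769 and 1129 counts. Its levels were 163 CPM (156 to 171) and 136 CPM (129 to 145), with a ratio of 1.20 (1.11 to 1.29). With total reads it was called higher at 1.54, and with pan-neuronal scaling the ratio was 0.980.

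Rgs20 (chromosome 1, 4909576 to 5070285, minus strand), known for its preference for Gz, had 883 and 886 counts. Scaled, these are 81.6 CPM (76.3 to 87.2) and 107 CPM (100.2 to 114), and the intervals do not overlap. The ratio was 0.762 (0.693 to 0.837) with TMM and 0.979 with total reads, and with pan-neuronal scaling the gene was called lower at 0.624. A stretch of 127 exonic bases of Rgs20 is also exon of Atp6v1h, which runs the other way. Because it is unknown here whether counting used strand, reads of that stretch may belong to either gene. Rgs17 and Rgs20, with opposite ratios under TMM, summed to a ratio of 1.01 (0.949 to 1.07) there. With total reads their sum had a ratio of 1.29 (1.22 to 1.37). The RZ gene Rgs19 is not in this sum and is given below.

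The R12 class had the fewest counts of the classes, and both called members belong to it. Rgs10 (chromosome 7, 128373621 to 128418758, minus strand) is among the smallest members and is known from microglia and other immune cells as well as from neurons. It had 165 and 224 counts, or 15.2 CPM (13.01 to 17.8) and 27.1 CPM (23.6 to 30.9). The intervals do not overlap, and the gene was 1.78-fold lower in the escalating library (1.45 to 2.18), a ratio of 0.563. With total reads the ratio was 0.723 (0.588 to 0.888), which kept its direction but not its call. A lower ratio was found for 11.8% of measured genes. Microglia markers moved the same way: all 18 were called lower, with summed levels of 41.4 and 1915 CPM and a median log2 ratio of -5.72, whereas the log2 ratio of Rgs10 was -0.83. The part of microglial RNA in the lower count of Rgs10 was not tested.

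Rgs14 (chromosome 13, 55369732 to 55384687, plus strand) encodes a scaffold with an RGS domain, Ras-binding domains and a GoLoco motif that binds inactive Gi subunits, and is known for its high level in hippocampal area CA2. It had 360 and 174 counts, or 33.3 CPM (29.9 to 36.9) and 21.0 CPM (18.02 to 24.4). The intervals do not overlap, and the escalating level was higher by 1.58-fold (1.32 to 1.91). With total reads this became 2.03-fold (1.69 to 2.45), and with pan-neuronal scaling the ratio was 1.29 (1.08 to 1.56) and no longer called. Of measured genes 92.6% had a lower ratio. Cortical excitatory markers did not all move one way: 5 of 9 measured ones were called higher and 2 lower, with a median log2 ratio of 0.66. Among the higher ones were Neurod6 (67 and 13 counts), Slc17a7 (291 and 97), Tbr1 (139 and 35) and Nrgn (3177 and 1528). Lower were Rorb (506 and 1342 counts) and Fezf2 (33 and 45), while Cux2 and Lamp5 were not called. The list summed to 463 and 439 CPM. Whether cortical tissue had a part in the level of Rgs14 was not tested.

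Rgs12 (chromosome 5, 34949445 to 35039644, plus strand), the other scaffold of the class, which also carries a GoLoco motif, had 231 and 168 counts. Its levels of 21.3 CPM (18.7 to 24.3) and 20.3 CPM (17.4 to 23.6) have overlapping intervals. The ratio was 1.05 (0.858 to 1.29) with TMM, and a difference of this size was not detectable at this depth. With total reads the ratio was 1.35 (1.10 to 1.66) and with pan-neuronal scaling 0.860 (0.702 to 1.06). Rgs12 was called under neither. Over the class, the lower Rgs10 and the higher Rgs14 summed with Rgs12 to a ratio of 1.02 (0.915 to 1.14) with TMM. With total reads the class ratio was 1.31 (1.17 to 1.47).

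**Figure D2:**
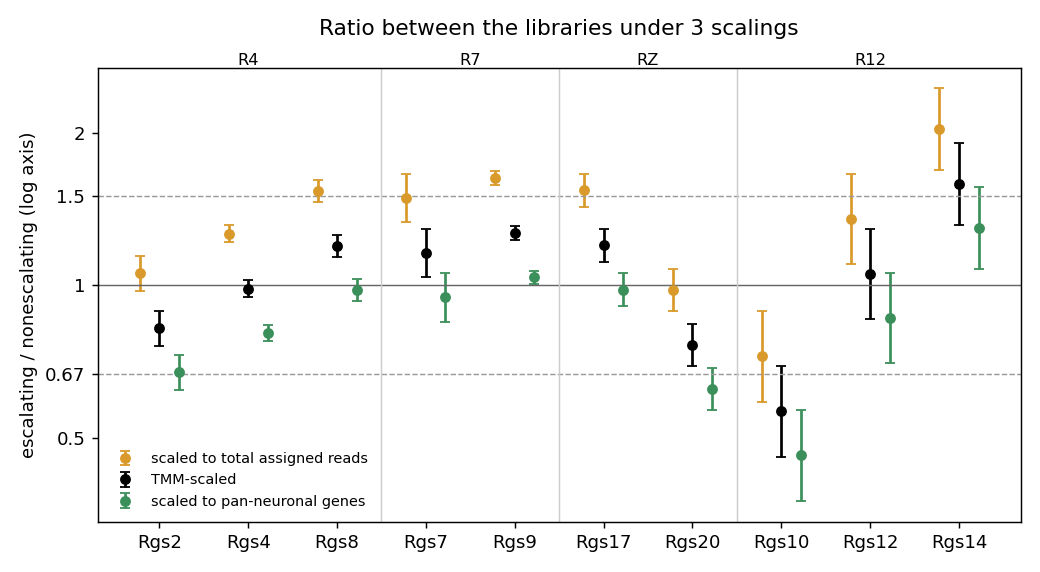
Ratio of escalating over nonescalating (log axis) for each RGS gene with its exact 95% counting interval, under TMM, total-read and pan-neuronal scaling; dashed lines mark 1.5-fold in each direction. A change of scaling shifts all genes together, so their order stays: Rgs10 lowest, at 0.563 with TMM, and Rgs14 highest, at 1.58.

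Comparisons between members do not depend on the library scaling, because both genes of a pair are counted in the same libraries. They were added after the values were seen. The count of Rgs14 was 2.18 times that of Rgs10 in one library and 0.777 times in the other, so their relation changed 2.81-fold (1.79 to 4.41, an interval widened for 45 pairs). Rgs9 went from 31.4 to 70.7 times the count of Rgs10, nonescalating against escalating, a change of 2.25-fold (1.60 to 3.16). Relative to Rgs20, Rgs9 changed 1.66-fold (1.41 to 1.96) and Rgs17, its fellow of the RZ class, 1.57-fold (1.29 to 1.92). The relation of Rgs9 to Rgs4 changed 1.29-fold (1.19 to 1.39). In all, 16 of 45 pairs, or 35.6%, differed by 1.5-fold or more, beside 46.4% of all pairs of measured genes; the pairs share members and are not independent.

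Levels of different genes were compared per kilobase (kb) of exon, using the union of each gene's exons. With this length Rgs4 led with 190 CPM per kb (186 to 195) and 193 (188 to 199). Rgs9 followed with 169 (166 to 172) and 133 (130 to 136). Together these genes carried most of the family's transcript pool. Rgs4 made up 38.2% of the summed CPM per kb of the 10 genes in the escalating library and 40.9% in the nonescalating library, and Rgs9 made up 33.8% and 28.2%.

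With the union of exons, the next places were exchanged between the libraries. In the escalating library Rgs8 took place 3 with 36.9 CPM per kb (35.8 to 38.1) and Rgs2 place 4 with 32.2 (30.5 to 34.0). In the nonescalating library Rgs2 took place 3 with 39.2 (37.0 to 41.5) and Rgs8 place 4 with 30.9 (29.7 to 32.1). Rgs17 and Rgs20 were not told apart in the escalating library, at 19.7 and 19.3 CPM per kb with overlapping intervals. In the nonescalating library Rgs20 was above Rgs17, at 25.3 (23.6 to 27.0) and 16.4 (15.5 to 17.4). There Rgs17 did not differ from Rgs10 beyond counting error, at 15.8 (13.8 to 18.04). In the escalating library Rgs10 and Rgs14 had overlapping intervals, at 8.91 (7.60 to 10.4) and 7.85 (7.06 to 8.70), while Rgs7 was above both at 12.3 (11.5 to 13.2). In the nonescalating library Rgs7, at 10.6 (9.76 to 11.6), was below Rgs10. Rgs12 was the lowest in both libraries at 2.52 (2.20 to 2.86) and 2.39 (2.04 to 2.78).

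The leading gene and the places after it depended on the length used. With the longest transcript as length, Rgs9 stood first with 311 and 246 CPM per kb and Rgs4 second with 200 and 204. Rgs9 was also first with the mean coding transcript, at 433 and 342 CPM per kb, and Rgs4 second at 214 and 217. The exchange of Rgs8 and Rgs2 was not seen with the mean coding transcript, where Rgs8 stood above Rgs2 in both libraries (146 and 122 against 64.7 and 78.8 CPM per kb). With the longest transcript Rgs20 took place 3 in the nonescalating library, with an interval overlapping that of Rgs2. Rgs14 in place 9 and Rgs12 in place 10 kept their rank under each of the 3 lengths in both libraries. With the mean coding transcript, however, they were not told apart in the nonescalating library, at 8.93 and 8.49 CPM per kb with overlapping intervals.

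**Figure D3:**
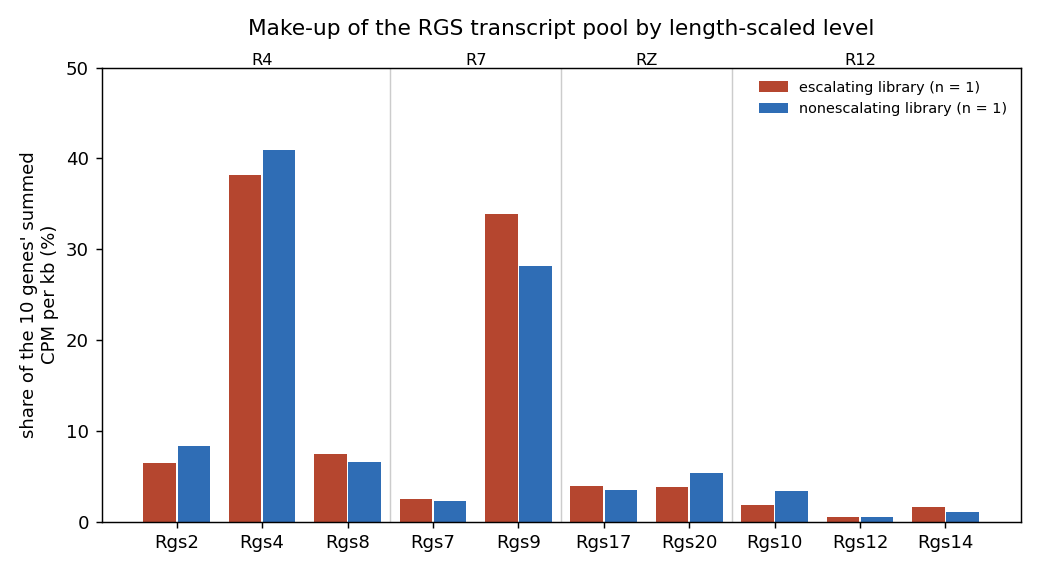
Share of each RGS gene in the summed CPM per kb of the 10 genes (percent, union of exons as length), by class, with 1 library per bar and no error bar. Rgs4 holds 38.2% (escalating) and 40.9% (nonescalating), Rgs9 holds 33.8% and 28.2%, and no other gene reaches 10%.

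Together, the other Rgs-named genes of the mouse had low levels in these libraries. Of 11, 5 were measured, and together all 11 summed to 45.7 and 58.0 CPM, beside 2529 and 2265 CPM for the 10 members. The members were chosen with earlier results of these data known, so this contrast may in part follow from that choice. Per kb of exon, Rgs11 (3.54 and 2.56 CPM) and Rgs5 (2.70 and 3.70 CPM) were no lower than the member Rgs12 (2.52 and 2.39 CPM). Of the 5 measured, 0 were called higher and 2 lower, beside 9.36% and 17.1% of all measured genes. Their median log2 ratio was -0.56 (-0.20 with total reads, where 1 was higher and 1 lower). Rgs6, an R7 gene with 39 and 62 counts, was 2.08-fold lower (1.37 to 3.19). Rgs19, an RZ gene with 52 and 72 counts, had a ratio of 0.552 (0.379 to 0.7999) and was called lower. Rgs11, the remaining R7 gene, had 161 and 89 counts and a ratio of 1.38 (1.06 to 1.81).

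Rgs3 had 76 and 86 counts and a ratio of 0.676 (0.490 to 0.931). Rgs5, itself on the list of mural (pericyte and smooth muscle) markers, had 133 and 139 counts and a ratio of 0.732 (0.572 to 0.935), while 3 of 5 measured markers on that list, Pdgfrb, Vtn and Abcc9, were called lower. Rgs16 had 14 and 12 counts, too few for a 1.5-fold difference to be detectable at this depth. Rgs18 and Rgs21 had no count in either library, which, with a floor of 3 counts per library, allows up to 0.277 and 0.363 CPM.

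Among 13 measured genes of other proteins with an RGS or RGS-like domain, such as receptor kinases, sorting nexins and axins, 0 were called higher and 2 lower. The shares over all measured genes were 9.36% and 17.1%. These 13 had a median log2 ratio of -0.34 (0.02 with total reads). The sorting nexin genes Snx14 and Snx13 were 1.80-fold (1.60 to 2.02) and 1.53-fold lower (1.40 to 1.67).

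The G alpha subunits are described by class. Calls in these and the following lists stand beside 9.36% higher and 17.1% lower of all measured genes with TMM. With total reads those shares were 31.5% and 9.4%. Of 5 Gi, Go and Gz genes, 0 were called higher and 1 lower, with a median log2 ratio of -0.09 (0.27 with total reads). Gnao1, the abundant neuronal Go subunit, had 13537 and 10748 counts and a ratio of 0.963 (0.939 to 0.988). Gnai3, a widely expressed Gi subunit, had 259 and 287 counts and a ratio of 0.690 (0.581 to 0.819). Gnaz, the Gz subunit that RZ proteins prefer, had 562 and 334 counts and a ratio of 1.29 (1.12 to 1.48). Gnai2, which is widely expressed in glia and immune cells, had 834 and 1205 counts and was 1.89-fold lower (interval 1.73 to 2.07), and microglia and astrocyte markers were lower beside it; their part in this was not tested.

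The Gq subunits Gnaq and Gna11, targets of Rgs2 and Rgs4, had ratios of 0.842 (0.789 to 0.898) and 1.07 (0.970 to 1.17), and neither was called (median log2 ratio -0.08). Of 4 Gs, Golf and G12/13 genes 0 were called higher and 2 lower, with a median of -0.51 (-0.15 with total reads, where 1 was lower). Gnal, the Golf subunit that couples Drd1 to adenylyl cyclase, and Gnas had ratios of 0.954 (0.932 to 0.977) and 0.926 (0.889 to 0.965). Gna13 and Gna12 were 2.39-fold (2.16 to 2.64) and 1.87-fold lower (1.55 to 2.26). Of 10 measured G beta and gamma genes 1 was called higher and 4 lower (2 and 2 with total reads; median 0.01). The neuronal subunit Gng3 was 1.73-fold higher (1.60 to 1.88), whereas Gng5, Gng12 and Gng10 were 2.53-fold (1.63 to 4.01), 2.41-fold (2.11 to 2.75) and 1.60-fold lower (1.24 to 2.08), and Gng7, the partner of Golf in striatum, was 1.56-fold lower (1.51 to 1.60).

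Other proteins that modulate G proteins without a receptor had a positive median. Of 5 measured genes, 1 was called higher and 0 lower, with a median log2 ratio of 0.48 (0.84 with total reads). Rap1gap, a GTPase-activating protein for Rap, was 1.64-fold higher (1.498 to 1.79). Gpsm1, which carries GoLoco motifs as Rgs14 does, had a ratio of 1.48 (1.15 to 1.90), Ric8b, a chaperone of Golf and Gs, 1.39 (1.30 to 1.49) and Rasd2, a striatum-enriched small GTPase, 1.15 (1.11 to 1.20).

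Receptors act upstream of the G proteins. Of 24 measured Gi/o-coupled receptor genes 2 were called higher and 4 lower, shares near the 9.36% and 17.1% of all measured genes, with a median log2 ratio of -0.24 (0.12 with total reads, where 3 were higher and 1 lower). Grm3 and Grm4, metabotropic glutamate receptor genes, were lower by 2.08-fold (1.93 to 2.24) and 1.78-fold (1.59 to 1.99). The GABA-B subunit gene Gabbr2 was 1.85-fold lower (1.64 to 2.09). Oprl1, the nociceptin receptor gene, was 1.51-fold lower (1.10 to 2.08). Chrm2 and Hrh3, a muscarinic and a histamine receptor gene, were 1.68-fold (1.08 to 2.68) and 1.56-fold higher (1.44 to 1.69). The serotonin receptor gene Htr1f had 37 and 16 counts and a ratio of 1.77 (0.960 to 3.40).

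Of 12 measured Gq-coupled receptor genes 1 was called higher and 5 lower, beside 9.36% and 17.1% of all measured genes. Their median was -0.50 (-0.14 with total reads, where 1 was higher and 2 lower, beside 31.5% and 9.4%). The neurotensin receptor gene Ntsr2, also on the astrocyte list, was 2.54-fold lower (2.18 to 2.97). The muscarinic receptor gene Chrm3 was 2.23-fold (1.44 to 3.51) and the histamine receptor gene Hrh1 1.92-fold lower (1.18 to 3.16). The neurokinin receptor gene Tacr3 had a ratio of 0.514 (0.334 to 0.785) and was called lower, as was the adrenergic receptor gene Adra1a at 0.638 (0.524 to 0.776). Htr2a, a serotonin receptor gene, was 1.79-fold higher (1.44 to 2.23). Of 15 measured effectors 0 were called higher and 7 lower, beside 9.36% and 17.1% of all measured genes, with a median of -0.14. With total reads 3 were higher and 3 lower, beside 31.5% and 9.4%. The adenylyl cyclase genes Adcy7 and Adcy6 were lower by 4.93-fold (2.63 to 9.90) and 1.72-fold (1.24 to 2.40), and the phospholipase C genes Plcb2 and Plcb3 3.23-fold (2.12 to 5.03) and 2.04-fold lower (1.56 to 2.66). Adcy5, the main adenylyl cyclase of striatum, had 4085 and 5076 counts and a ratio of 0.615 (0.590 to 0.641).

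**Figure D4:**
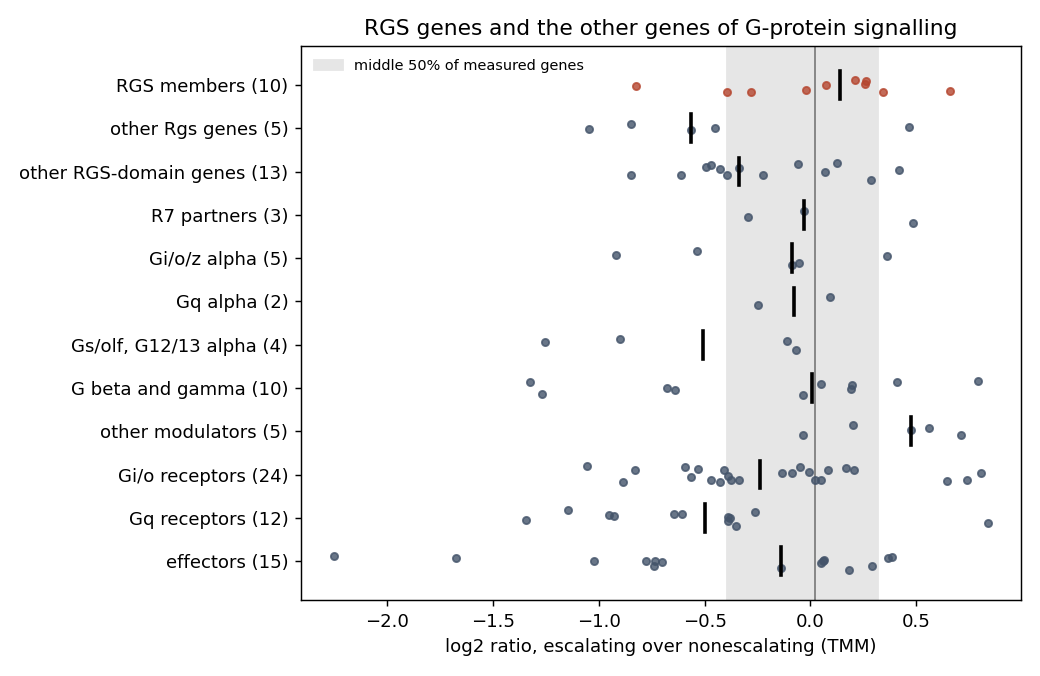
Log2 ratio of escalating over nonescalating (TMM) for each measured gene of the RGS members and of 11 other lists of G-protein signalling, with the number measured in brackets; black bars are list medians, the grey line is the median and the grey band the middle 50% of all measured genes. The RGS members range from -0.83 to 0.66 around a median of 0.14, and the effectors reach down to -2.25.

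Neuronal marker lists are given beside these genes. With TMM, the median log2 ratio was 0.29 for 15 pan-neuronal genes, -0.09 for 16 projection neuron genes and 0.23 for 9 measured interneuron genes, beside 0.14 for the RGS members and 0.02 for all measured genes. Of pan-neuronal genes 3 (Snap25, Uchl1 and Stmn3) were called higher and 0 lower. Of projection neuron genes 1 (Ppp1r1b) was called higher and 1 lower, and of interneuron genes 2 (Lhx6 and Th) and 1 (Slc17a8). The medians of the oligodendrocyte, endothelial, mural and astrocyte lists lay between -0.94 and -1.49, below every member of the RGS set, whereas the median of the oligodendrocyte precursor list, -0.18, lay within the members' range.

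**Figure D5:**
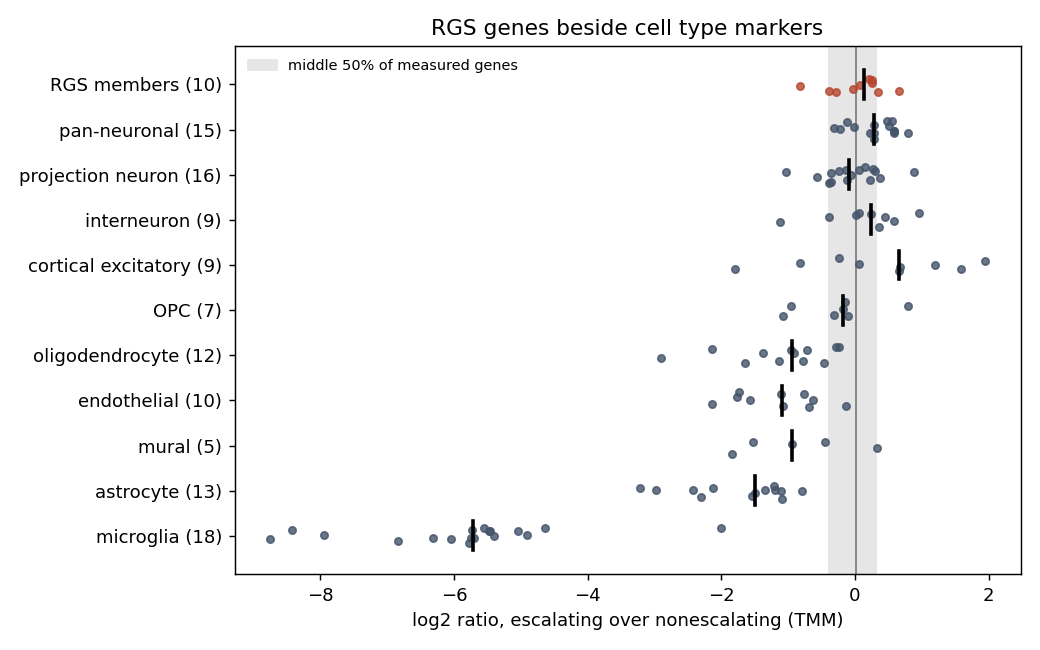
Log2 ratio of escalating over nonescalating (TMM) for the measured RGS members and for markers of 10 cell types, with list medians as black bars and the middle 50% of all measured genes as a grey band. The microglia markers lie between -8.75 and -2.01, below all RGS members, of which Rgs10 is the lowest at -0.83.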

How the data were processed

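Total RNA of dissected dorsal striatum was sequenced as 1 library per group. The submitters' processing notes name STAR 2.0.0e, the build mm10 and HTSeq; which annotation and strand setting were used is not given in the sources used here. Each deposited file holds whole-number read counts per gene symbol, as the authors left them. Reads given to no gene made up 46.2% (escalating) and 44.7% (nonescalating) of those listed and stayed out. Their make-up differed: 28.6% and 18.1% fell on no feature, 8.06% and 18.9% were ambiguous, and 9.53% and 7.78% aligned to more than 1 place.

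TMM factors (1.13 and 0.882) came from edgeR 4.0.16 in R 4.3.3; with 1 library per group, no count test was run. Ratios are escalating over nonescalating CPM with exact Clopper-Pearson 95% intervals of the split of counts. Log2 ratios use a pseudocount of 0.5 in proportion to library size. Levels carry exact Poisson intervals. Exon lengths and positions came from GENCODE M21 (same build), and Python 3.11.15 with scipy 1.17.1 did the rest. The ratio script was tested on simulated data. Intervals for pairs of members are normal intervals of the log odds ratio, widened for 45 pairs.

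The members and lists were chosen with earlier results of these data known. All 10 members are named, and each list is given by its counts and its median, with up to 4 genes with the largest ratio in size and with 10 fixed names (Gnb5, Rgs7bp, Rgs9bp, Gpr158, Rgs3, Rgs5, Rgs6, Rgs11, Rgs16 and Rgs19). Other genes with values, such as Gnao1, Gpr179, Rgs18, Rgs21, Adcy5, Gng7, Chrm2, Hrh3 and Htr2a, and all markers named, were chosen after their values were seen, and so were the pair and class comparisons. Alternatives were DESeq2 1.42.0 size factors, total reads, upper quartile, TMM without AK140265 and Rn45s, pan-neuronal scaling, filters, pseudocount, thresholds and gene length.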

Additional observations from a re-analysis of the deposited data

How the results depend on the processing

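The direction of Rgs10 and Rgs14 held under every scaling and pseudocount run, with log2 ratios from -1.11 to -0.47 and from 0.37 to 1.02; Rgs10 lost its call with total reads and Rgs14 with pan-neuronal scaling. No ratio sign changed with DESeq2 size factors, with TMM without AK140265 and Rn45s or with a pseudocount of 5. Signs changed for Rgs4 with the upper quartile, for Rgs2 and Rgs4 with total reads, and for Rgs7, Rgs8, Rgs12 and Rgs17 with pan-neuronal scaling. With total reads 4 members were called higher and 0 lower, their median log2 ratio was 0.50, and 3853 and 1148 of all measured genes were called higher and lower, against 1143 and 2085 with TMM. With pan-neuronal scaling 0 members were called higher and 2 lower, the median was -0.15, and 340 and 3528 of all genes were called. These scalings shift every gene by the same amount. At a 2-fold threshold 0 members were called in either direction, beside 249 genes higher and 1085 lower; when a difference of 25% was enough 2 were called higher and 2 lower, beside 2467 genes higher. With the longest transcript as length, 5 members (escalating) and 8 members (nonescalating) took another rank of level, and with the mean coding transcript 5 and 6. Filters of 10 counts or 1 count left the calls of members as they were. No paired analysis was possible because each group has 1 library. Depth limits Rgs12, Rgs10 and Rgs14 most, which have the fewest counts and the widest intervals.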
